A study of Homo sapiens with 14 samples.

Results

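The nuclear genome carries 40 annotated tRNA genes for proline and threonine, 20 of each, among 429 nuclear tRNA genes on chromosomes 1 to 22 and X. They were taken from the RefSeq annotation of GRCh38.p14 as genes of biotype tRNA whose symbol starts with TRP- or TRT-, a rule that uses no measured value, although earlier results of these data were known when the set was chosen. The data are ChIP-seq peak lists from T47D, an established human breast cancer line positive for the oestrogen and the progesterone receptor. Cells grown in serum and insulin received either the ethanol vehicle or progesterone (P4), each for 1 h, and the P4 dose is not given in the sources used here. Chromatin was precipitated with an antibody to the progesterone receptor (PR) or to POLR3A, with 3 replicate libraries for each antibody and treatment and 1 pooled input per treatment. Each group of 3 libraries is represented by 1 peak list, so the values below have no replicate error and no comparison between treatments could be tested against the spread between replicates.

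Transfer RNAs carry amino acids to the ribosome and read codons through their anticodon. Their genes are transcribed by RNA polymerase III, of which POLR3A is the largest subunit, from promoter elements inside the gene called the A box and the B box. TFIIIC binds these boxes and brings in TFIIIB, which recruits the polymerase. PR is the nuclear receptor for progesterone, a protein that binds DNA. In gene symbols the letters after the hyphen give the anticodon, the first number names a mature sequence and the last number a gene copy. Proline tRNAs of the set have the anticodons AGG, CGG and TGG, and threonine tRNAs AGT, CGT and TGT.

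The sequence of 4 of the 40 genes lies within a RefSeq promoter window of a neighbouring gene (GRCh38.p14) and is shown here 5′ to 3′, with capitals for the A box and then the B box. All 4 are printed, and the other genes had no sequence in these windows. The first pair hold the same tRNA while their POLR3A values lay far apart. TRT-TGT6-1 had the strongest POLR3A region of its anticodon, and TRT-AGT1-3 had PR under P4.
TRP-TGG3-2: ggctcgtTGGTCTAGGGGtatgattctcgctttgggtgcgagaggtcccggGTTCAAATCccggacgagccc
TRP-TGG3-5: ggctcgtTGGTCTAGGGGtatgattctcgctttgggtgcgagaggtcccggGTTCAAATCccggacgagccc
TRT-TGT6-1: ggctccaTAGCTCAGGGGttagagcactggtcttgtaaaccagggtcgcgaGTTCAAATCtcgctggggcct
TRT-AGT1-3: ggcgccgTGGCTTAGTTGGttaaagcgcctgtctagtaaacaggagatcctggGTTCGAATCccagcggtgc
The positions are chr14:20684016-20684087 (plus strand), chr16:3188094-3188165 (plus strand), chr5:181191687-181191758 (minus strand) and chr19:33177057-33177128 (plus strand), the last lacking the final bases of a gene of 74 bp. All 72 bases of TRP-TGG3-2 and TRP-TGG3-5 were identical. The strand is the one on which an A box stands before a B box.

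The flanks of the identical pair, which differ between the copies, are shown too. Whether they bear on the POLR3A values was not tested. The 40 bases before each gene matched at 13 positions, and their GC content was 45.0% at TRP-TGG3-2 and 22.5% at TRP-TGG3-5.
TRP-TGG3-2 upstream: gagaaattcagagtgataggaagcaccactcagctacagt
TRP-TGG3-5 upstream: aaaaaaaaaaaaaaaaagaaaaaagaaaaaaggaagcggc
The 30 bases after each gene follow, with capitals for the first run of at least 4 T, the letters at which RNA polymerase III usually stops. The run begins at base 13 after TRP-TGG3-2 and at base 3 after TRP-TGG3-5.
TRP-TGG3-2 downstream: tcgtggctactgTTTTTccacccccttttg
TRP-TGG3-5 downstream: ccTTTTccttctcttttttcccatttcgca

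Letters were searched on both strands. The A box in its strict form was in 3 of the 4 genes, in 5 of the 15 tRNA genes whose body lies in any promoter window, and in 3.69% of 35116 promoter windows over their first 72 bases. A form that leaves the second base free, chosen after the sequences were seen and containing the strict one, was in 4 of 4 genes, 11 of 15 and 7.22%. The B box in its strict form was in 1 of 4 genes, TRT-AGT1-3, in 10 of 15 and in 0.057%. A wider form, GTTCNANNC, also chosen afterwards and containing the strict one, was in 4 of 4 genes, 15 of 15 and 1.78%. The strand of the 4 genes was read from these wider forms, so 4 of 4 was fixed for both by that rule. The letters of the progesterone response element were in 0 of the 4 promoter windows and in 0.39% of all windows over their whole length.

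POLR3A was found at every proline and threonine tRNA gene under vehicle and at 39 of the 40 under P4. A gene was counted when a region overlapped its body widened by 100 bp at each end. By this rule POLR3A regions were at 40 of 40 genes under vehicle (95% Wilson interval 91.2 to 100%), against 82.3% of all nuclear tRNA genes. Under P4 they were at 39 of 40, 97.5% (87.1 to 99.6%), against 81.8%. These intervals cover counting over genes only. The single gene whose call differed was TRP-TGG3-5, which had POLR3A under vehicle and no region under P4. Over all tRNA genes 3.26% lost and 2.80% gained POLR3A in the same sense.

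The strength of a region is given as the authors' −log10 q, the larger the stronger the enrichment, and it ranks regions within a list without measuring a change between lists. The strongest POLR3A region at the 40 genes had a median −log10 q of 292.4 under vehicle (range 4.89 to 595.2). Over all 429 tRNA genes the median was 204.3, with genes that lack a region set to 0. Under P4 the median was 299.4 (lowest value 0, highest 591.9), against 218.8 over all tRNA genes. Among genes with a region alone the order turned, with medians of 292.4 under vehicle and 301.2 under P4 for proline and threonine genes, against 353.9 and 354.2 over all tRNA genes. The median region lay at percentile 99.39 of all POLR3A regions under vehicle and 99.65 under P4, against 99.47 and 99.69 for all tRNA genes with a region. The order of the genes was alike in both lists, with a Spearman correlation of 0.97 over the 39 genes found in each. This is a description, since genes that share a region share a value. Under vehicle 11 of the 40 genes (27.5%) lay above a −log10 q of 500, against 115 of all 429 tRNA genes (26.8%).

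**Figure D1:**
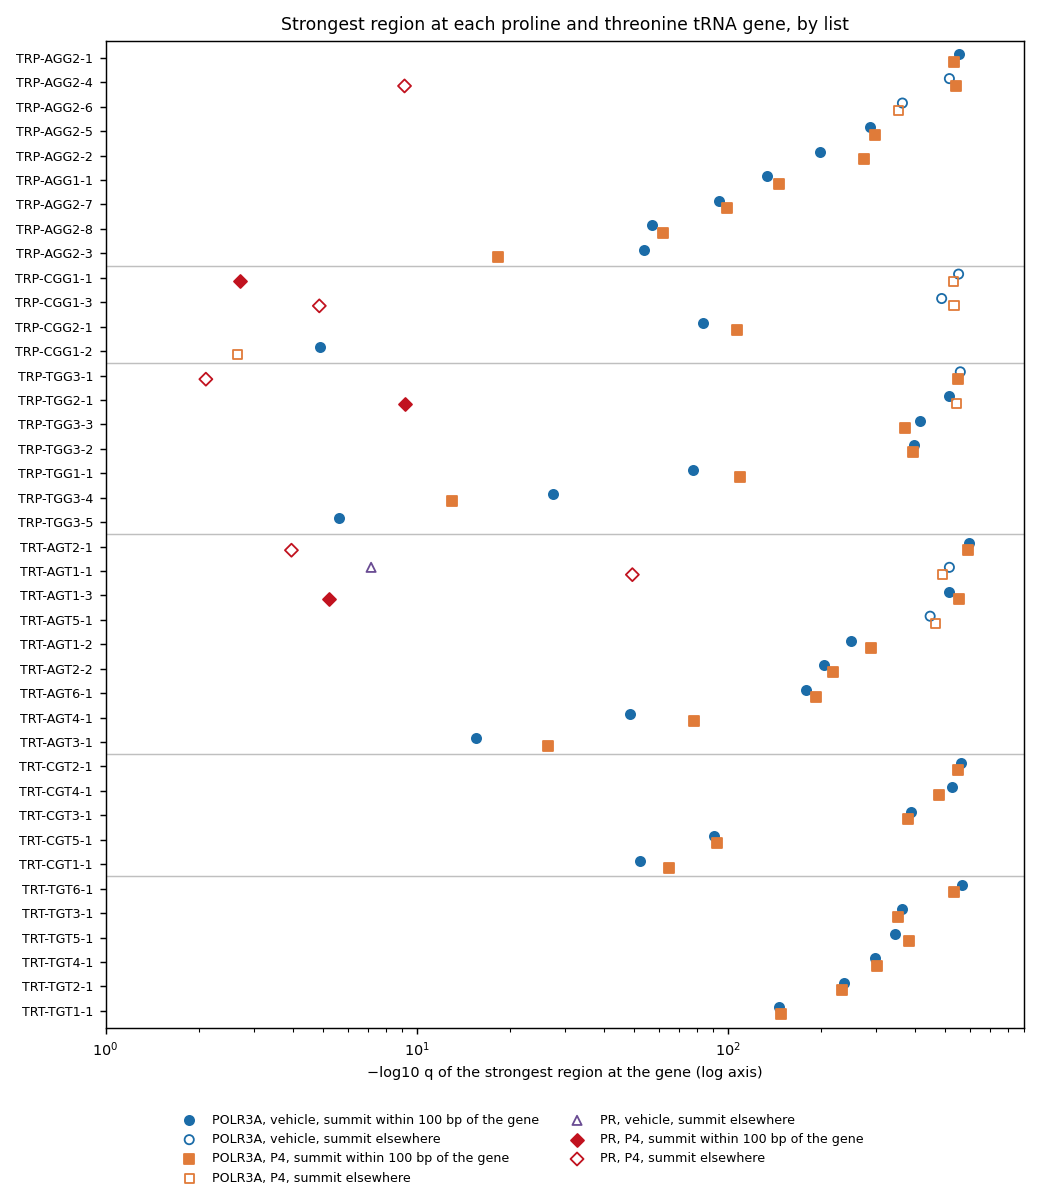
Strongest region at each of the 40 genes in each list, as −log10 q on a log axis, with genes grouped by anticodon and ordered by the POLR3A vehicle value. Filled symbols have a summit within 100 bp of the gene and open symbols do not. POLR3A values run from 2.66 to 595.2, and the PR values from 2.10 to 49.4 belong to 8 genes.

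Proline tRNAs with the AGG anticodon read proline codons after the wobble adenosine is turned into inosine. All 9 genes had POLR3A under both treatments, with a −log10 q between 53.7 and 552.9 under vehicle and between 18.2 and 543.8 under P4. The highest under vehicle was TRP-AGG2-1 on chromosome 1 (167715488 to 167715559), with 552.9, and 533.1 under P4. Under P4 the highest was TRP-AGG2-4, with 543.8. The lowest was TRP-AGG2-3 on chromosome 7 (128783450 to 128783521), with 53.7 and 18.2. In percentile of the list this gene stood at 98.6 and 97.6, so it was a strong POLR3A site in each list and a weak one among its own kind. Its fold enrichment, also the authors' value, was 16.2 under vehicle and 6.39 under P4.

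The 4 genes with the CGG anticodon spread from 4.89 to 552.9 under vehicle. TRP-CGG1-1 on chromosome 1 (167714725 to 167714796) carried 552.9 and 533.1 through a region that it shares with TRP-AGG2-1. TRP-CGG1-3 on chromosome 17 (8222833 to 8222904, within the span of the long non-coding RNA gene LINC00324) carried 487.8 and 534.8 through a region of 4 tRNA genes. TRP-CGG2-1 on chromosome 6 (27091742 to 27091813) had 83.2 and 106.9. TRP-CGG1-2 on chromosome 16 (3172048 to 3172119) had 4.89 and 2.66, at percentiles 71.0 and 31.6. It was the weakest of the genes found in both lists, and its P4 summit lay 147.5 bp from the gene's midpoint, against 2.5 bp under vehicle.

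Of the 7 genes with the TGG anticodon, 7 had POLR3A under vehicle and 6 under P4. The highest was TRP-TGG3-1 on chromosome 5 (181188854 to 181188925), with 560.0 under vehicle and 552.4 under P4. TRP-TGG3-4 on chromosome 16 (3184133 to 3184204) was among the lowest, with 27.4 and 13.0. TRP-TGG3-5 had 5.63 under vehicle, at percentile 77.6, with a fold enrichment of 4.79 and a region 203 bp wide whose summit lay 26.5 bp from the gene's midpoint. Its P4 value is missing because no region of that list reached it.

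Threonine tRNA genes had a median of 321.7 under vehicle and 327.7 under P4, against 242.8 and 286.0 for proline genes with the missing value at 0, and the ranges of both amino acids overlapped over most of their length. The 9 genes with the AGT anticodon, the other set whose wobble adenosine becomes inosine, spread between 15.5 and 595.2 with vehicle and between 26.4 and 591.9 with P4. TRT-AGT2-1 on chromosome 6 (26532917 to 26532990) had the highest values, 595.2 and 591.9. It ranked 7 of the 429 tRNA genes under vehicle and 1 under P4, where its region was also the strongest of the whole POLR3A list. TRT-AGT3-1 (28726018 to 28726091), also on chromosome 6, was the lowest threonine gene with 15.5 and 26.4, and TRT-AGT4-1 (27726694 to 27726767) had 48.4 and 78.1. The region of each of these 3 genes covered no other tRNA gene, so this spread was seen outside shared regions.

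The 5 genes with the CGT anticodon ran from 52.3 to 564.0 under vehicle. TRT-CGT2-1 on chromosome 16 (14285893 to 14285964) had 564.0 and 548.5, in a place where the nearest other tRNA gene lies 7909747 bp away. TRT-CGT1-1 on chromosome 6 (28488993 to 28489066, within a long non-coding RNA gene span) had 52.3 and 64.7. The 6 genes with the TGT anticodon had the narrowest range, 145.8 to 566.3 with vehicle and 148.2 to 533.8 with P4. TRT-TGT6-1 on chromosome 5 (181191687 to 181191758), whose sequence is shown above, was the highest with 566.3 and 533.8.

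Genes that share the first number of the symbol did not share a level. The TRP-AGG2 genes, 8 copies on 6 chromosomes, ran from 53.7 to 552.9 under vehicle. The values of TRP-AGG2-1 (552.9), TRP-AGG2-4 (516.5) and TRP-AGG2-6 (364.8) belong to regions shared with another tRNA gene. The copies in a region of their own ran from 53.7 to 286.8. The 5 TRP-TGG3 genes had 560.0, 396.0, 415.8, 27.4 and 5.63, in the order of their copy number. The 560.0 and the 396.0 belong to regions shared with other tRNA genes. For TRP-TGG3-2 and TRP-TGG3-5, whose 72 bases were identical, the values were 396.0 and 5.63 under vehicle. The region at TRP-TGG3-2 also covered the tyrosine gene TRY-GTA5-5 in both lists. Its vehicle summit lay 3.5 bp from the midpoint of TRP-TGG3-2. The vehicle region at TRP-TGG3-5 covered no other tRNA gene. Under P4 TRP-TGG3-2 had 395.4 and TRP-TGG3-5 had no region. Reads from inside identical genes cannot be assigned to a copy, and reads that reach a flank can, so these values can depend on how the authors treated reads with several matches, which is not given in the sources used here. The part of such reads, or of the shared region, in the difference was not tested.

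**Figure D2:**
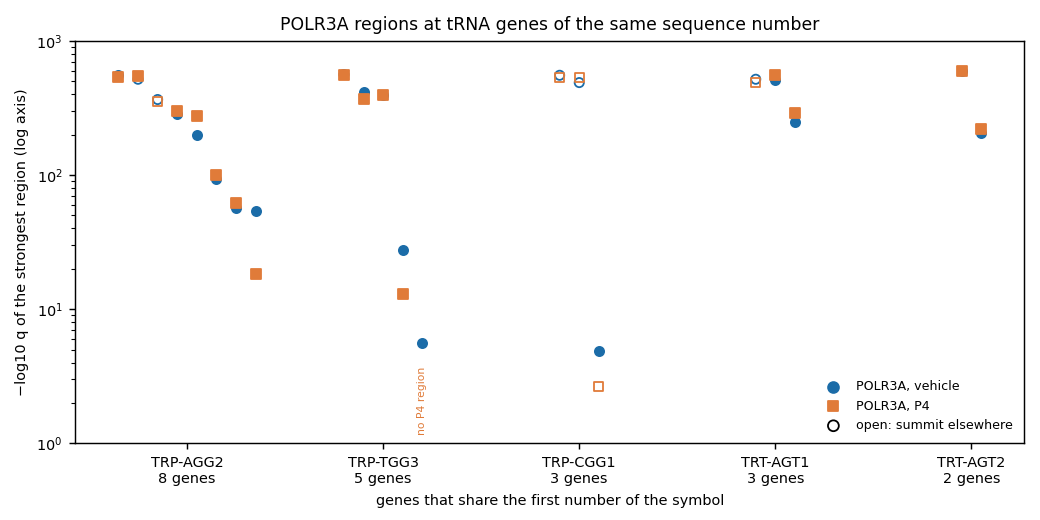
POLR3A −log10 q, on a log axis, of the genes in the 5 groups that share the first number of the symbol, ordered within a group by the vehicle value. The TRP-AGG2 values spread from 53.7 to 552.9 under vehicle and the TRP-TGG3 values from 5.63 to 560.0, and TRP-TGG3-5 has no P4 region. The 552.9 and the 560.0 belong to regions shared with other tRNA genes.

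POLR3A summits lay on or beside the gene at most of the 40. The summit is the position of highest enrichment in a region, and each region has 1. Under vehicle a summit lay within the gene or its 100 bp flanks at 33 of the 40 genes and inside the gene body at 30, against 68.3% and 62.2% of all tRNA genes. For P4 they numbered 32 and 29, against 68.3% and 62.5%. The nearest summit was within 500 bp of the midpoint at 37 genes under vehicle, at a median distance of 20.5 bp, and at 36 genes under P4, at 19.25 bp.

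Some genes were reached by a region whose summit lay on a neighbour. Under vehicle 13 of the 40 genes were in a region that covered more than 1 tRNA gene, with widths from 916 to 2623 bp, and 27 were in a region of their own, with widths from 203 to 1350 bp. The median −log10 q was 487.8 in the shared regions and 178.4 in the others. The value of a shared region belongs to all of its genes, and which gene gave it could not be told apart. On chromosome 11 TRP-AGG2-4 (76235513 to 76235584) and TRP-TGG2-1 (76235825 to 76235896) shared a region in both lists, with 516.5 under vehicle and 543.8 under P4. The summit lay 8.5 bp from the midpoint of TRP-TGG2-1 under vehicle and 17.5 bp from that of TRP-AGG2-4 under P4. On chromosome 5 the summit of the region at TRP-TGG3-1 lay 6 bp from the midpoint of the valine gene TRV-AAC2-1 under vehicle and 13.5 bp from that of TRP-TGG3-1 under P4. In contrast, at TRP-CGG1-3 the summit lay on the aspartate gene TRD-GTC2-11 in both lists, and at TRT-AGT1-1 on the serine gene TRS-GCT4-3.

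**Figure D3:**
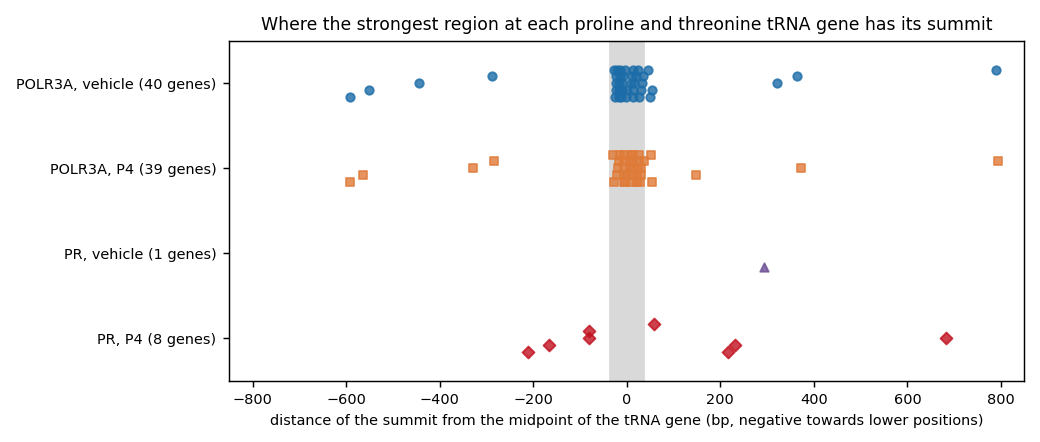
Position of the summit of the strongest region at each gene, in bp from the gene's midpoint, for the 4 lists, with a grey band for the gene body. Most of the 40 POLR3A vehicle summits lie on the band, and 0 of the 8 PR summits under P4 do.

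PR was at few of these genes. Under vehicle a PR region was at 1 of the 40 genes, 2.5% (95% Wilson interval 0.443 to 12.9%), against 12.8% of all nuclear tRNA genes. Under P4 it was at 8 of 40, 20% (10.5 to 34.8%), against 26.1%. All of them also had POLR3A, and both factors were at 25.9% of all tRNA genes under P4. From vehicle to P4, 7 genes gained and 0 lost a PR region, against 15.2% and 1.86% of all tRNA genes. The PR P4 list is much the longer, with 111515 regions against 38933. With both cut to 38933 regions by −log10 q, PR was at 1 gene with vehicle and at 3 with P4, against 12.8% and 10.3% of all tRNA genes. PR was found at 0 of 20 proline genes under vehicle (95% Wilson upper bound 16.1%) and at 5 of 20 under P4, and at 1 and 3 of 20 threonine genes. By anticodon the 8 genes under P4 were 1 AGG, 2 CGG, 2 TGG and 3 AGT, and 0 of the 5 CGT and 0 of the 6 TGT genes. The CGT and TGT counts of 0 hold for the 100 bp window. Within 500 bp, TRT-CGT2-1, TRT-CGT4-1 and TRT-TGT2-1 had PR under P4. With these numbers of genes such differences were not tested.

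TRT-AGT1-1 on chromosome 17 (8187160 to 8187233) was the gene with PR under both treatments and the only one of the 40 in all 4 lists. Its PR region had 7.14 under vehicle and 49.4 under P4 as −log10 q, and its POLR3A region 516.5 and 491.4. The PR region under vehicle (8187012 to 8187601) covered the gene, with the summit 293.5 bp from the midpoint. The PR region under P4 (8187274 to 8188044) began 41 bp beyond the gene, with the summit 681.5 bp away. Both regions covered the isoleucine gene TRI-AAT5-5, the tRNA gene nearest to each summit. An end of the coding gene BORCS6, which encodes a lysosome positioning factor, lies 1148 bp from the midpoint.

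The pair TRP-AGG2-4 and TRP-TGG2-1 shared the next strongest PR region under P4, with a −log10 q of 9.15 and a width of 1039 bp, and neither gene had a PR region under vehicle. TRT-AGT1-3 on chromosome 19 (33177057 to 33177130) had 5.25 under P4, with the summit 58.5 bp from its midpoint, the closest of the 8. TRP-CGG1-3 had 4.87 in a region that ended 19 bp short of the gene. TRT-AGT2-1 had 3.96, TRP-CGG1-1 2.71 and TRP-TGG3-1 2.10, the last in a region that ended 50 bp short of the gene. None of these 7 genes had PR under vehicle within 100 bp. Within 500 bp, 4 of the 7 did, TRP-CGG1-1, TRP-AGG2-4, TRP-TGG2-1 and TRP-CGG1-3, so at that window 3 of the 7 gains were left.

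**Figure D4:**
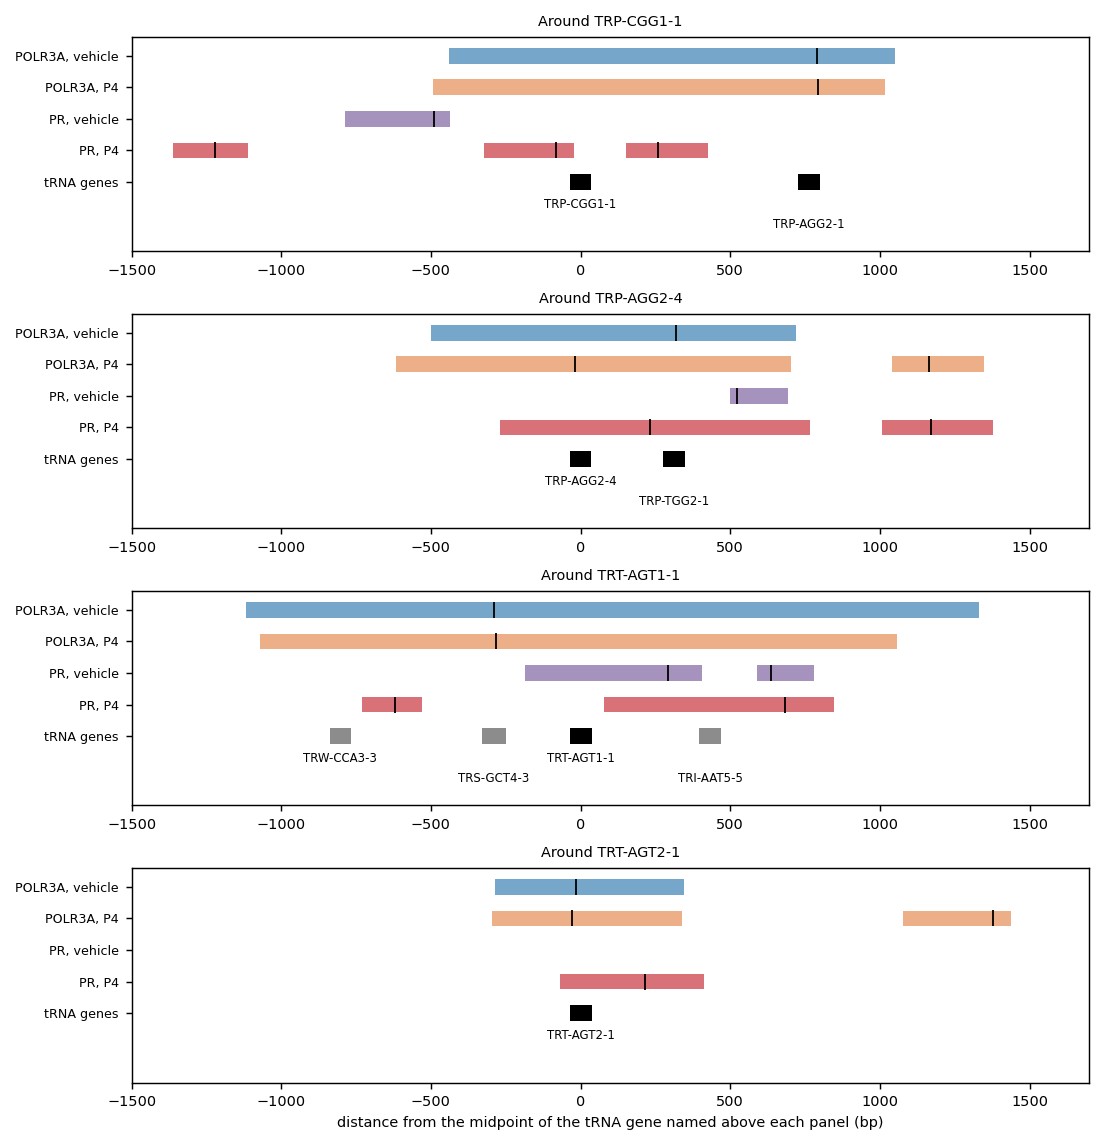
Regions of the 4 lists (bars, summit as a black tick) around 4 genes, in bp from the midpoint of the gene named above each panel, with proline and threonine genes in black and other tRNA genes in grey. The POLR3A regions cover several genes in 3 of the panels, and the PR regions under P4 cover TRP-AGG2-4, TRP-TGG2-1 and TRT-AGT2-1 with their summits beside these genes.

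PR summits seldom lay on these genes, and the same held over all tRNA genes. Under P4 a PR summit lay in the gene or its flanks at 3 of the 40 genes and in the gene body at 0, against 9.32% and 2.56% of all tRNA genes. Under vehicle it lay there at 0 genes, against 4.66%. The median distance from the midpoint was 211.5 bp over the 9 genes with a PR summit within 500 bp, from 58.5 to 295 bp. Under vehicle it was 282.8 bp over 4 genes. With the gene body alone in place of the 100 bp flanks, PR reached 1 gene under vehicle and 5 under P4, against 9.56% and 21.0% of all tRNA genes. The vehicle gene was TRT-AGT1-1, which the body rule did not count under P4. Within 500 bp PR was at 6 genes under vehicle and 12 under P4, against 19.8% and 35.4%.

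Other rules of overlap and of strength left POLR3A at 38 to 40 of the 40 genes, while the PR count under P4 fell with a stricter rule and rose with a wider window. The rule by summits, given above, left POLR3A at 33 and 32. With the gene body alone POLR3A was at 40 genes under vehicle and 39 under P4, against 81.8% and 81.6% of all tRNA genes. Within 500 bp it was at the same numbers of genes, against 82.8% and 82.5%. At a −log10 q of at least 5 POLR3A was at 39 and 38 genes, against 79.3% and 79.0%. PR at that level was at 1 gene under vehicle, against 4.20%, and at 4 under P4, against 16.6%. At a −log10 q of at least 10 POLR3A was at 38 genes in each list, against 75.3% and 76.9%, and PR at 0 and 1, against 2.10% and 7.69%. With the POLR3A lists cut to 29161 regions each, POLR3A was at 40 and 38 genes, against 82.3% and 80.7%.

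The genes with PR under P4 were among those with the strongest POLR3A regions. Their POLR3A −log10 q ran from 487.8 to 595.2 under vehicle, with a median of 516.5. The 32 genes without PR ran from 4.89 to 566.3, with a median of 201.5. The ranges overlap, and the 4 genes above 500 without PR were TRT-TGT6-1, TRT-CGT2-1, TRP-AGG2-1 and TRT-CGT4-1 (526.8), the last named after its value was seen. Of the 8 genes, 6 lay in a POLR3A region of several tRNA genes, as did 7 of the 32 others. Whether region width, gene spacing or POLR3A strength goes with PR was not tested. Among the other tRNA genes with POLR3A under vehicle the medians were 541.2 for the 103 with PR under P4 and 120.5 for the 210 without, so a like gap was seen there.

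By start of the gene symbol, 3 of 22 groups had POLR3A at every gene under vehicle, TRP, TRT and the 8 genes of TRX, and 4 did so under P4. Under P4 the proline share was 95% and the threonine share 100%. Under vehicle PR was at 0 genes in 3 of the 22 groups, of which TRP was the one with more than 7 genes. For TRP this 0 holds for the 100 bp window only. Within 500 bp, TRP-CGG1-1, TRP-AGG2-4, TRP-TGG2-1 and TRP-CGG1-3 had PR under vehicle, against 19.8% of all tRNA genes. These shares rest on 2 to 32 genes a group and were not tested.

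**Figure D5:**
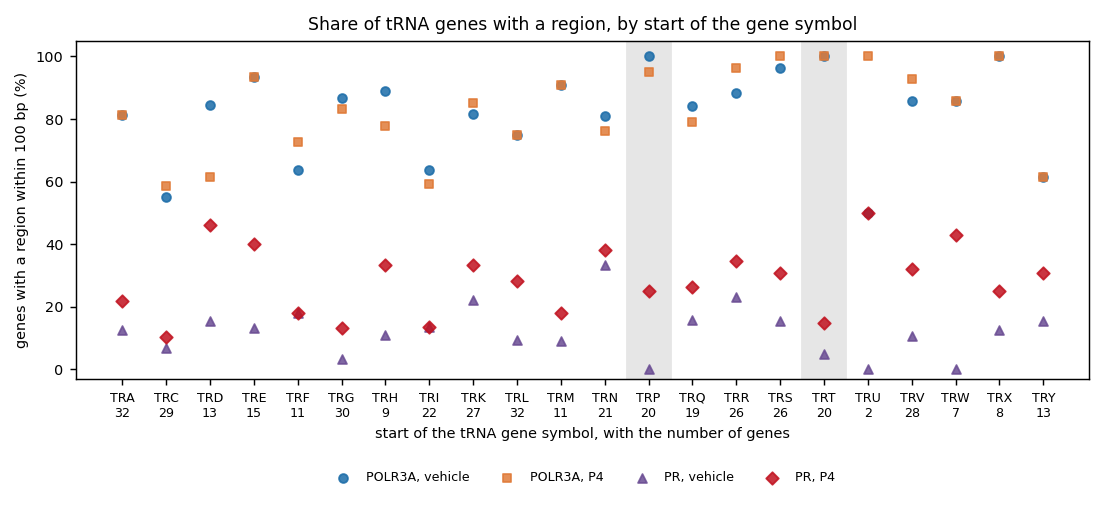
Share of tRNA genes with a region within 100 bp, in percent, by start of the gene symbol (number of genes below each), for the 4 lists. The shaded proline and threonine columns are at 100% for POLR3A under vehicle, and at 0% and 5% for PR under vehicle.

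The genes lie in several clusters. For the PR counts below, the shares over all nuclear tRNA genes were 12.8% under vehicle and 26.1% under P4. Differences between chromosomes were not tested. Chromosome 6 holds 11 of them, all but 1 without PR under P4, with POLR3A from 15.5 to 595.2 under vehicle. Chromosome 14 holds 7, with POLR3A from 77.4 to 396.0 and no PR in either list. Chromosome 16 holds 8, of which 7 proline genes lie around the olfactory receptor gene OR1F1, with no PR in either list. Under vehicle it contains the 3 weakest proline genes, TRP-CGG1-2, TRP-TGG3-5 and TRP-TGG3-4, as well as TRP-TGG3-3 (3158922 to 3158993) with 415.8 and 370.6, named after its values were seen. Of the 40 genes, 33 lie inside no other gene span, 3 within the span of a protein-coding gene and 4 within that of a long non-coding RNA gene. Whether these lie in introns or exons was not analysed here, because the gene table gives spans only.

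Promoters of coding genes adjoin some of these genes. TRP-TGG3-2 ends 90 bp before the start site of ANG, which encodes the ribonuclease angiogenin, an enzyme known to cut tRNAs, and its POLR3A region (20683052 to 20684475 on chromosome 14 under vehicle) covered that start site at 20684177. TRP-TGG3-5 ends 39 bp before the start site of OR1F1, at 3188204, and its POLR3A region ended at 3188182. TRT-AGT5-1 on chromosome 17 (8139452 to 8139525) lies, by its midpoint, 983 bp from an end of PER1, a circadian clock gene, and had POLR3A of 447.9 under vehicle and 467.2 under P4 with the summit on the serine gene TRS-CGA1-1. It had no PR region within 100 bp in either list. This gene was added once its values were known.

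The enzymes that charge and modify proline and threonine tRNAs, in the cytosol or in mitochondria, were examined at their own gene ends. A region was counted there within 1 kb. Of 16 genes, 12 had POLR3A under vehicle and 10 under P4, or 75.0% and 62.5%, against 30.8% and 33.6% of 19821 protein-coding genes. PR was at 8 under vehicle and 13 under P4, or 50% and 81.2%, against 23.9% and 50.2%. The POLR3A regions there were weak beside those at the tRNA genes, with medians of 3.67 and 3.28. EPRS1, the enzyme that charges proline tRNAs in the cytosol, had POLR3A of 2.76 and 2.77 and PR of 2.62 and 3.54. PARS2, its mitochondrial counterpart, had a PR region under P4 alone (3.88). TARS1, which charges threonine tRNAs in the cytosol, had POLR3A of 2.12 and 2.44 and PR of 6.57 and 18.9. TARS2, the mitochondrial enzyme, had PR of 1.31 and 5.44, and TARS3, a TARS1 relative, 2.86 and 3.07.

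Among the modifying enzymes, ADAT2 and ADAT3, which turn the wobble adenosine of AGG and AGT anticodons into inosine, differed in their lists. ADAT2 had POLR3A under vehicle alone (8.05) and no PR, while ADAT3 had a region in all 4 lists, with PR of 2.50 and 5.94. TRMT5, which methylates the guanosine next to the anticodon, had POLR3A of 3.80 and 4.24 and PR under P4 alone (4.35). Of the 7 genes for threonylcarbamoyl adenosine, a modification of threonine tRNAs, YRDC had the strongest PR region, 11.3 under vehicle and 50.6 under P4, and TP53RK followed with 5.79 and 14.6. LAGE3 had no region in any list. Counted at a −log10 q of at least 5, POLR3A was at 3 of the 16 genes under vehicle and 1 under P4, against 10.5% and 9.71% of protein-coding genes. PR was at 3 and 7, against 10.7% and 30.6%.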

How the data were processed

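ChIP-seq of PR and POLR3A in T47D cells gave 14 libraries and 4 deposited peak lists, 1 for each antibody and treatment. Per the submitters' processing notes, cutadapt, Bowtie2, MACS2 and the build hg38 were used, and versions, settings, pooling and control are not given in the sources used here. The deposited lists give each region's fold enrichment (a ratio), −log10 q, a score and the summit. These values are the authors' and were used within a list only. Depth is unknown, because no read numbers are in the files, and deeper libraries can lengthen a list and raise its −log10 q. Replicates share a list, and nothing says that they came from separate cultures.

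Regions on chromosomes 1 to 22 and X were overlapped with RefSeq genes of GRCh38.p14 (58419 of 59098 genes kept, without those of alternate sequences), in Python 3.11.15 with pandas 2.3.3. Overlap calls were tested on simulated data. Sequences came from the RefSeq promoter windows, 250 bp before to 50 bp after a start site, which held 4 of the 40 genes. Positions are 1-based. Percentiles are within a list. No test was run over genes. Members, gene lists and alternatives were chosen with earlier results of these data known. The wider A box and B box forms were added after the sequences were seen. Named genes are those whose POLR3A call differed or was missing, those with PR, and the highest of each anticodon by POLR3A −log10 q under vehicle. By the same value, each amino acid adds its 3 highest genes and its 3 lowest among genes in both POLR3A lists. Others were named after their values were seen. The alternatives tried were a −log10 q minimum of 5 or 10, other windows, summits in place of overlap, lists at equal length, genes within 1 kb as 1 locus, and rank by fold.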

Additional observations from a re-analysis of the deposited data

How the results depend on the processing

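Of 79 values under alternative settings, 50 stayed within 1.5 times the reported count or within the interval of the reported median, 29 moved and 0 reversed. Only gained minus lost carries a sign, so no other value could reverse. POLR3A counts at the 40 genes stayed within 1.5 times under each alternative run. POLR3A gained minus lost was -1 as reported, 0 at a −log10 q of at least 10 and -2 with lists at equal length. PR counts depended on the settings. At a −log10 q of at least 5, PR under P4 was at 4 genes, with a net gain of 3 and 4 genes with both factors. At 10 or more, PR was at 0 genes under vehicle and 1 under P4, with a net gain of 1 and 0 and 1 genes with both. With the gene body alone, PR under P4 was at 5 genes, all 5 with both factors and a net gain of 4. Within 500 bp, PR under vehicle was at 6 genes, all 6 with both. The net gain there was 6, but 4 of the 7 genes gained within 100 bp had a vehicle region. By summits, PR was at 0 and 3 genes with a net gain of 3, and 0 and 1 had both. With lists at equal length, PR under P4 was at 3 genes, 3 with both, and the net gain was 2. At the enzyme genes, a −log10 q of at least 5 left POLR3A at 3 and 1 and PR at 3 and 7. The PR vehicle percentile, from 1 gene, went from 57.7 to 68.7 by fold, and the PR vehicle summit distance from 282.8 to 488.5 bp with a limit of 1000 bp. No PR vehicle summit lay within 200 bp, so that limit gave no value. The cause of these moves beyond the settings themselves was not tested. No paired analysis was possible because the lists hold no value per replicate, and for the same reason no replicate could be left out.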

Other observations

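Besides the 40 genes, 6 annotated proline tRNA pseudogenes carry TRP- symbols. POLR3A was at 1 under vehicle and 2 under P4. TRP-AGG6-1 on chromosome 16 (3152608 to 3152679) had POLR3A of 101.3 under vehicle and 83.8 under P4, with summits 268.5 and 321.5 bp from its midpoint. TRP-TGG5-1 on chromosome 1 (207004809 to 207004885) had POLR3A under P4 alone, with a −log10 q of 7.50 and the summit 20 bp from its midpoint. The same pseudogene had PR in both lists, 2.15 under vehicle and 35.7 under P4, with summits 15 and 300 bp away. The other 4 had no region in any list.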
